A study of Mus musculus with 17 samples.

Results

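Calmodulin and the calmodulin-dependent protein kinases (CaM kinases) carry calcium signals in neurons, and 9 of their genes were followed here in mouse frontal cortex: Camk2a, Camk2b, Camk2d, Camk2g, Camk4, Camkk1, Camkk2, Calm2 and Calm3. They were taken by symbol from the 48440 genes of the deposited table, and all 9 were among the 14144 genes that reached 1 TPM (a relative abundance corrected for transcript length, with the same total in every library) in at least 8 libraries and were tested. Tissue came from 17 male C57BL/6J offspring killed at postnatal day 189, 1 library per animal. Mothers of 9 of them had received Poly(I:C), a synthetic RNA duplex that mimics viral infection, by intraperitoneal injection at 20 mg/kg at G12.5 of pregnancy; mothers of the other 8 had received saline. Offspring of both groups carried no listed allele or further treatment, the labels do not tie them to litters, and the comparison asked whether prenatal exposure had left a difference in adult cortical transcripts.

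Calcium entering a neuron binds calmodulin, a small protein with paired calcium-binding loops, and loaded calmodulin switches on its target enzymes. CaM kinase II (CaMKII) is a large holoenzyme built from alpha, beta, gamma and delta subunits; once it phosphorylates a threonine of its own regulatory segment it stays active after calcium has gone, and in forebrain excitatory synapses it is required for long-term potentiation. A separate cascade runs through CaM kinase kinases, which phosphorylate and activate the nuclear kinase CaMK4 and also AMP-activated protein kinase.

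Calm2 and Calm3 are shown first because they encode 1 protein from different DNA, which is what lets short reads tell them apart. In GENCODE M21 transcripts their coding sequences each hold 450 bases and specify the same 149 residues, yet they are identical at only 372 bases and share no identical aligned run over 17 bases. The stretch below codes for the first calcium-binding loop (12 residues) on the mouse assembly GRCm38. Capitals mark the 7 of 36 bases at which the genes differ, each of them the last base of a codon.
Calm2, chr17:87435873-87435908, minus strand: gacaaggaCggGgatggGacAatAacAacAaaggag
Calm3, chr7:16917667-16917702, minus strand: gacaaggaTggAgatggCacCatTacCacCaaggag

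The CaMKII subunit genes Camk2b, Camk2d and Camk2g also differ in base sequence around the threonine whose phosphorylation makes the enzyme calcium-independent. The segment below (9 residues) is shown for these 3 genes because the switch of the kinase lies in it, with the threonine codon in capitals. The Camk2a segment was not extracted and is not compared. The 3 stretches have 3 distinct base sequences and 2 distinct protein sequences.
Camk2b, chr11:5988985-5989011, minus strand: cacagacaggagACTgtggaatgtctg
Camk2d, chr3:126797729-126797755, plus strand: cacaggcaggagACTgtagactgcttg
Camk2g, chr14:20760427-20760453, minus strand: catcgccaagagACGgtagagtgctta

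A stretch of 100 bases, the read length the labels give, was therefore searched for in all annotated transcripts. None of the 100-base windows of Camk2a, Camk2b, Camk2d, Camk2g, Camk4, Camkk1 or Camkk2 occurred on the same strand in another gene's transcript. Calm2 shared 11 of 1527 windows with the gene model Gm7308 (mean 7.22 TPM), and Calm3 shared 3 of 2508 with Gm5881 (mean 3.37 TPM). No window was shared between members, so a full-length read without mismatches could match only 1 of them.

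Marker genes of the tissue were present in every library: neuronal genes summed to 5218 to 6072 TPM in the Poly(I:C) and 5168 to 6123 TPM in the saline group, and excitatory markers to 1121 to 1300 TPM and 1157 to 1272 TPM. The most abundant markers of the lists, with Poly(I:C) and saline means, were Snap25 (3215 and 3064 TPM), Slc17a7 (775 and 799 TPM), Sst (863 and 820 TPM), Slc1a3 (333 and 331 TPM), Mbp (1278 and 1155 TPM), C1qa (75.3 and 76.1 TPM) and Ly6c1 (111 and 103 TPM). A named gene can differ in direction from most of its list. As deposited, 4 neuronal markers were higher and 4 lower, 4 and 4 excitatory, 3 and 5 inhibitory, and 1 and 5 astrocyte. For oligodendrocyte, microglial and endothelial markers the counts were 6 and 0, 4 and 2, and 2 and 4. Of all tested genes, 71.0% were lower. The 8 striatal markers, Ppp1r1b the most abundant (92.0 and 80.1 TPM), summed to 114 to 226 TPM and 117 to 131 TPM, with the maximum in Poly(I:C) replicate 7. The 8 olfactory markers, Pbx3 the most abundant tested, summed to 15.9 to 19.0 TPM and 15.0 to 67.6 TPM, with the maximum in saline replicate 7, and 1 of them, the untested Eomes, was at 0 in 1 or more libraries. None of the tested markers passed, and Tbx21, like Eomes, was not tested. All 8 striatal markers were higher as deposited, and all 6 tested olfactory markers were lower. Oligodendrocyte genes summed to 1491 to 3095 TPM and 1611 to 2129 TPM, again highest in Poly(I:C) replicate 7. These 2 libraries, both numbered 7, stood apart from the rest and also held extreme values of Camk2a, Camk2b, Camk2d, Camk2g, Calm2 and Calm3, given below with and without them; the part of the marker levels in those values was not tested. Whether fewer cells or less RNA per cell lies behind a lower value cannot be told apart in whole tissue.

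Transcripts of Calm2, Calm3 and Camk2a were among the most abundant of the tissue. Calm2 had a mean of 2390 TPM over the 17 libraries and ranked 24th among all genes, Camk2a followed at 1794 TPM (30th) and Calm3 at 1524 TPM (35th). Camk2b, the other neuronal CaMKII subunit, stood at 309 TPM, and Camkk2, the kinase kinase prominent in brain, at 241 TPM. Camk2g reached 96.3 TPM, Camkk1 44.4 TPM, Camk2d 42.3 TPM and Camk4 30.4 TPM. In this order each gene exceeded the next in 17 of 17 libraries, with 2 exceptions. Camk2a exceeded Calm3 in 16 of 17 libraries, and Camkk1 exceeded Camk2d in 10 of 17, so the ranges of these neighbours overlapped. Within a group the coefficient of variation of a member lay between 3.70% and 10.2%.

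**Figure D1:**
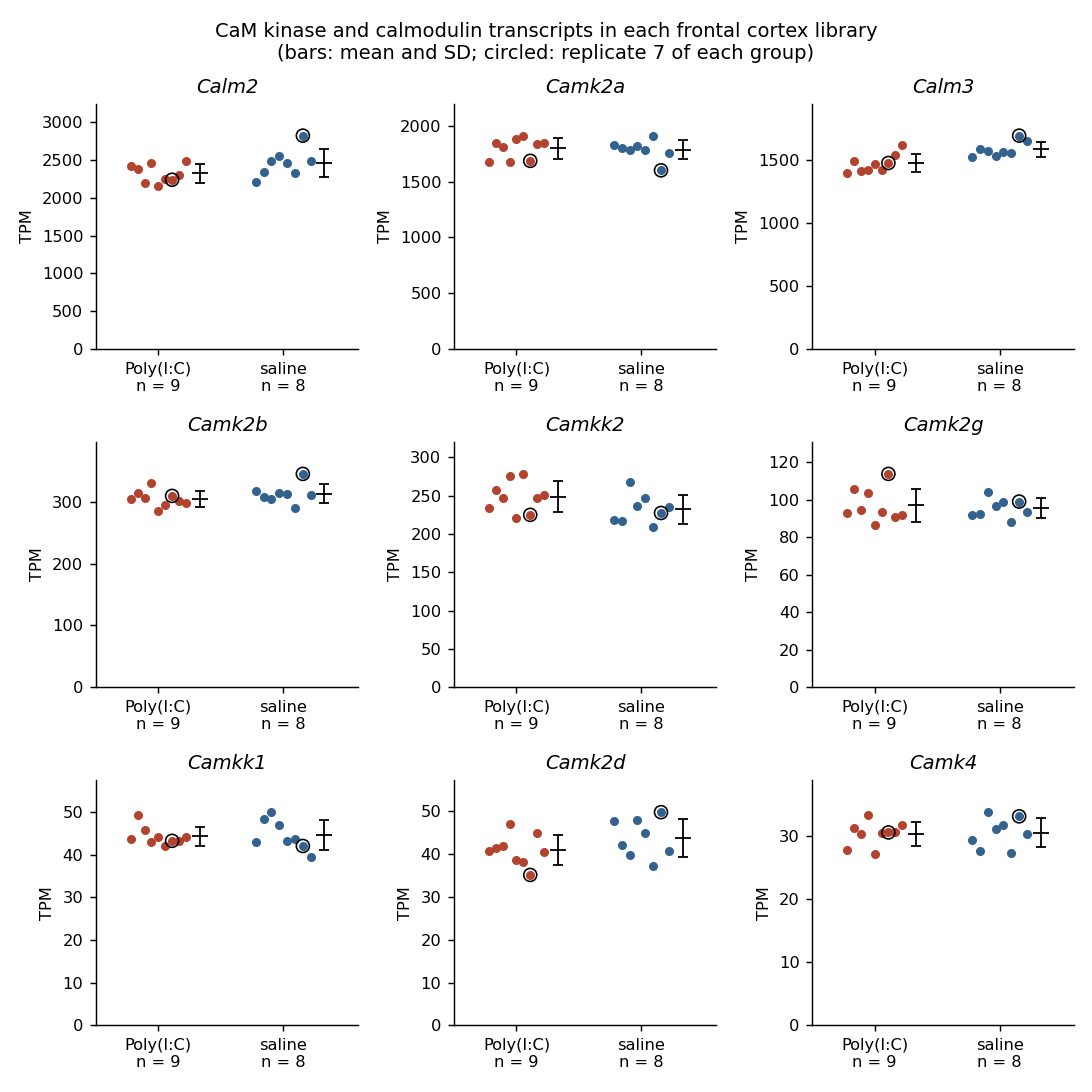
TPM of each member (vertical axes, from 0) in the 9 Poly(I:C) and 8 saline libraries, 1 point per animal, with the group mean and SD beside the points. Groups overlap in every panel; Calm3 is the panel in which most Poly(I:C) points (7 of 9) lie under the lowest saline point.

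No member passed the comparison of the groups. By limma on log2(TPM + 1) with Benjamini-Hochberg adjustment, 0 of 9 members and 0 of 14144 genes (0%) had an adjusted p under 0.05, and the members' adjusted p ran from 0.486 to 0.973. Under an unadjusted p of 0.05, 1 member was lower (Calm3) where 7.85% of all tested genes were, and 0 members were higher where 0.898% were. The Mann-Whitney rank test over the same genes called 0 genes, with 1132 under an unadjusted p of 0.05 against 1237 by limma. The median log2 difference of the members was -0.0071 and that of all tested genes -0.035. Because most genes leaned low in the Poly(I:C) libraries as deposited (71.0% of 14144), each member's difference is also given after median-of-ratios scaling, which levels the typical gene between libraries. That scaling left 4 members lower and 5 higher, against 6 and 3 as deposited. Of all tested genes, 50.9% were lower after it.

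Calm3, 1 of the genes for the calmodulin protein, had the member difference with the smallest p. It spanned 1395 to 1619 TPM in the Poly(I:C) libraries with a median of 1464 TPM. Its saline values ran from 1522 to 1691 TPM with a median of 1566 TPM. Of the Poly(I:C) libraries, 7 of 9 lay under the lowest saline library, while Poly(I:C) replicates 8 and 9 reached into the saline range; the highest of all 17 was saline replicate 7. Its means were 1471 ± 71.4 and 1583 ± 58.5 TPM; here and below, paired values give the Poly(I:C) group first (n = 9) and saline second (n = 8), and ± is the SD unless marked SE. The log2 difference was -0.11 ± 0.031 (SE), with a 95% interval of -0.17 to -0.042 and a limma adjusted p of 0.486. After median-of-ratios scaling it was -0.069 with an adjusted p of 0.677 by limma, and 5 of 9 Poly(I:C) libraries then lay under the lowest saline one. Without replicate 7 of either group the difference was -0.093 as deposited (limma adjusted p = 0.847). With the scaling added it was -0.066 (limma adjusted p = 0.902). The unadjusted limma p was 0.0027 as deposited, 0.048 after the scaling and 0.0094 as deposited without replicate 7 of either group. With the scaling and without these libraries it was 0.0869, no longer under 0.05.

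Calm2, the most abundant member, ranged from 2155 to 2489 TPM with a median of 2308 TPM in the Poly(I:C) group. Saline libraries ranged from 2206 to 2825 TPM with a median of 2475 TPM. The groups overlapped, but 8 of 9 Poly(I:C) libraries lay under the saline median, and 7 of 9 did after median-of-ratios scaling. As deposited, 2 saline libraries exceeded the Poly(I:C) maximum, and the saline maximum was replicate 7. The log2 difference was -0.081 ± 0.042 (SE; limma adjusted p = 0.587), was -0.044 after median-of-ratios scaling, and as deposited was -0.046 without replicate 7 of either group and -0.052 without saline replicate 7 alone. With the scaling and without both it was -0.018. The Calm2 to Calm3 ratio within a library, which is free of the scaling between libraries, was 1.58 ± 0.0953 against 1.55 ± 0.0857, a difference smaller than either SD, and was 1.59 and 1.54 without replicate 7 of either group.

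Camk2a, the alpha subunit gene of CaMKII whose messenger RNA is transported into dendrites, lay between 1681 and 1914 TPM in the Poly(I:C) group (median 1839 TPM). In the saline group it lay between 1603 and 1914 TPM (median 1796 TPM). The highest values of both groups coincided at replicate 6 of each, and the lowest of all 17 was saline replicate 7. Its means were 1800 ± 92.1 and 1788 ± 87.9 TPM. The log2 difference was 0.0090 ± 0.035 (SE), with a 95% interval of -0.065 to 0.083, or 0.956 to 1.06 as a ratio of groups. Its direction was not fixed: it was -0.0020 without replicate 7 of either group, -0.013 without saline replicate 7 alone and -0.0023 without Poly(I:C) replicate 6. After median-of-ratios scaling it was 0.046, and 0.026 with replicate 7 of either group also left out.

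Camk2b, whose beta subunit binds actin and brings CaMKII to the cytoskeleton, ranged from 285 to 331 TPM in the Poly(I:C) group (median 304 TPM). Saline values ranged from 291 to 345 TPM (median 312 TPM), the highest again in replicate 7. The difference of -0.038 ± 0.033 (SE) on the log2 scale was -0.00073 after median-of-ratios scaling (95% interval -0.049 to 0.047), which is close to the -0.0014 of the median tested gene under the same scaling. As deposited without replicate 7 of either group it was -0.021.

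Camk2d and Camk2g encode the delta and gamma subunits, which are expressed well beyond neurons. Camk2d ran from 35.1 to 47.0 TPM (median 40.8 TPM) under Poly(I:C) and from 37.3 to 49.8 TPM (median 43.5 TPM) under saline, a log2 difference of -0.094 ± 0.061 (SE; limma adjusted p = 0.649). Its lowest library was Poly(I:C) replicate 7 and its highest saline replicate 7, and without both the difference was -0.041. Median-of-ratios scaling gave -0.058, and -0.014 with both also left out. Camk2g ran from 86.4 to 114 TPM (median 93.7 TPM) and from 87.9 to 104 TPM (median 95.1 TPM), a log2 difference of 0.018 ± 0.049 (SE; limma adjusted p = 0.929). Its maximum was Poly(I:C) replicate 7, and the difference was -0.011 without that library alone and -0.0039 without replicate 7 of either group. After median-of-ratios scaling it was 0.055, and 0.024 with replicate 7 of either group also left out.

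The subunit composition of CaMKII transcripts differed between the groups by less than 1 SD for each of the 4 genes. Of the summed Camk2 TPM, Camk2a supplied 80.2% ± 1.45 and 79.8% ± 1.57. Camk2b supplied 13.6% ± 0.933 and 14% ± 1.11, Camk2g 4.34% and 4.27%, and Camk2d 1.83% and 1.96%. The Camk2a to Camk2b ratio was 5.92 ± 0.502 with a range of 5.09 to 6.63, against 5.73 ± 0.529 with a range of 4.64 to 6.58. Its lowest value was that of saline replicate 7, and without replicate 7 of either group the means were 5.98 and 5.89. The Camk2d to Camk2g ratio averaged 0.425 ± 0.0521 and 0.459 ± 0.0456, with its minimum of 0.309 in Poly(I:C) replicate 7. Without replicate 7 of either group it was 0.440 and 0.453.

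**Figure D2:**
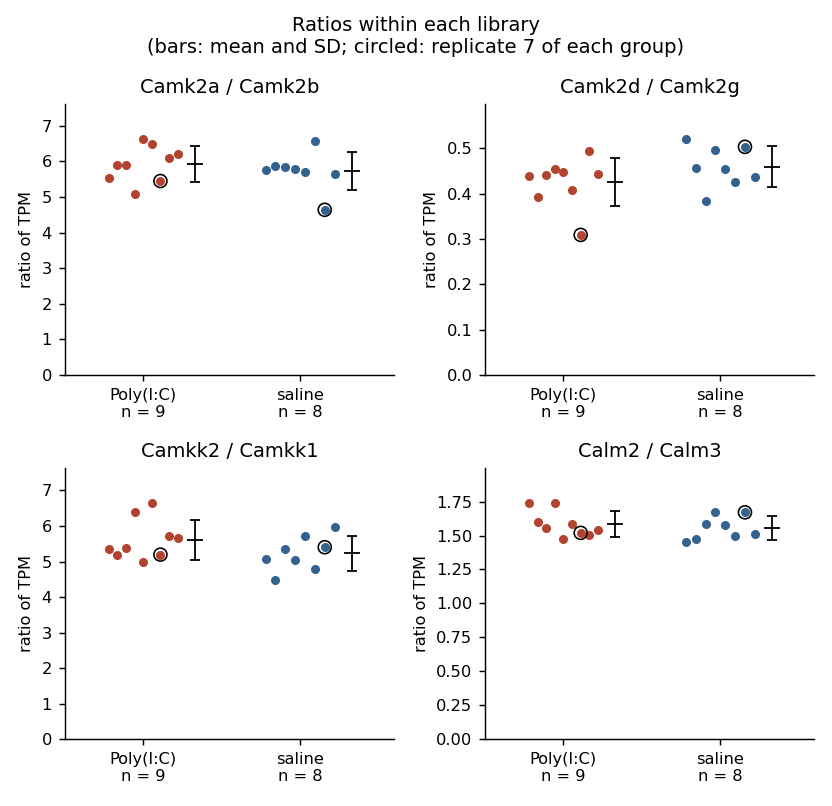
Ratios of TPM within each library (vertical axes, from 0), 1 point per animal, with group means and SD. Saline replicate 7 (circled) has the lowest Camk2a to Camk2b ratio, at 4.64, and Poly(I:C) replicate 7 (circled) the lowest Camk2d to Camk2g ratio, at 0.309.

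Camkk2, an activator of CaMK4 and of AMP-activated protein kinase, had the largest positive difference among the members. Its Poly(I:C) values ran from 220 to 278 TPM (median 247 TPM) and its saline values from 209 to 267 TPM (median 231 TPM). The groups overlapped, and 2 Poly(I:C) libraries exceeded the saline maximum. The means were 248 ± 20.2 and 232 ± 18.8 TPM, a log2 difference of 0.095 ± 0.052 (SE; limma adjusted p = 0.605). After median-of-ratios scaling the difference was 0.13 (95% interval 0.028 to 0.24; limma adjusted p = 0.601), and all 9 Poly(I:C) values then exceeded the saline median, against 7 of 9 as deposited. Under that scaling Camkk2 was the 1 member higher, and Calm3 the 1 member lower, at an unadjusted p of 0.05, beside 3.87% and 3.46% of all tested genes.

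Camkk1, the other kinase kinase gene, ran from 42.0 to 49.4 TPM (median 43.7 TPM) under Poly(I:C) and from 39.5 to 50 TPM (median 43.4 TPM) under saline. Camk4, which encodes the nuclear kinase that phosphorylates the transcription factor CREB, ran from 27.1 to 33.3 TPM (median 30.6 TPM) and from 27.4 to 33.8 TPM (median 30.7 TPM). Both had differences within 0.01 of 0 as deposited, -0.0067 ± 0.044 (SE) and -0.0071 ± 0.048 (SE), which became 0.030 and 0.029 after median-of-ratios scaling. The Camkk2 to Camkk1 ratio was 5.61 ± 0.563 and 5.23 ± 0.483, a difference under 1 SD, and the ratio ranged from 4.99 to 6.63 and from 4.48 to 5.97.

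**Figure D3:**
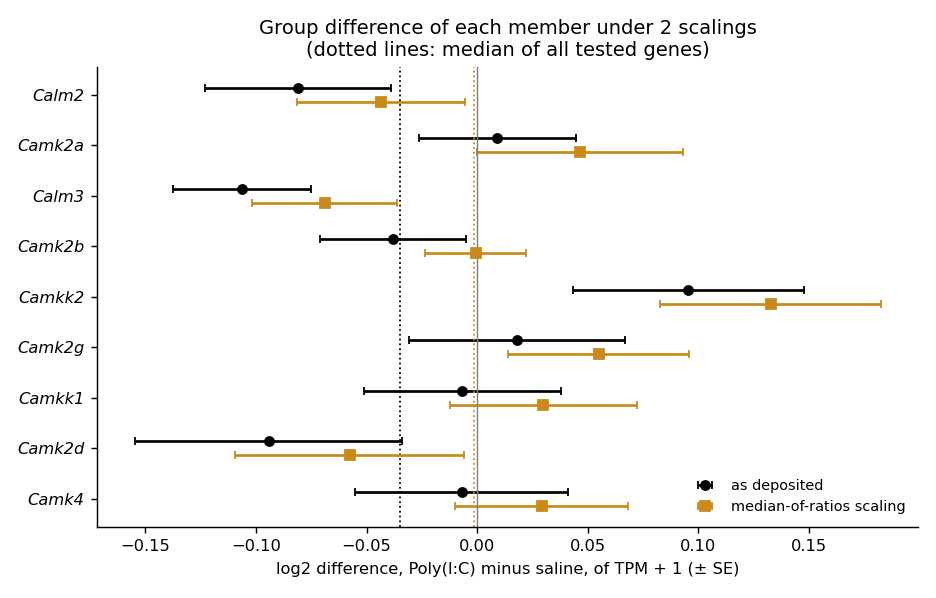
Log2 difference of each member, Poly(I:C) minus saline, with its SE (horizontal axis), before and after median-of-ratios scaling; dotted lines mark the median of all tested genes (-0.035 and -0.0014). Calm3, Calm2, Camk2d and Camk2b lie below 0 under both (Camk2b at -0.00073 after scaling), Camkk2, Camk2g and Camk2a above 0 under both, and Camkk1 and Camk4 cross 0.

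On the assembly GRCm38, Camk2a occupies chromosome 18 from 60925618 to 60988152 and Camk4 chromosome 18 from 32934931 to 33191228. Camk2b lies on chromosome 11 from 5969644 to 6066362, Camkk1 on chromosome 11 from 73019008 to 73042073, Camk2d on chromosome 3 from 126596302 to 126846326 and Camk2g on chromosome 14 from 20734875 to 20794088. Camkk2 lies on chromosome 5 from 122731170 to 122779409, Calm2 on chromosome 17 from 87433412 to 87446935 and Calm3 on chromosome 7 from 16915379 to 16924114. All 9 are annotated as protein-coding. Genes annotated within Camk2a, Camk2d and Camk4 had at most 0.18 TPM on average (the antisense Gm15551 in Camk2d), and the other 6 overlap no annotated gene.

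Members varied together in some pairs and apart in others across animals. With group means removed after median-of-ratios scaling, the 36 pairs over 17 libraries had Pearson's r from -0.67 (Camk2a and Camk2b; Spearman's rho -0.48) to 0.74 (Camk4 and Camkk2; rho 0.70). Without replicate 7 of either group these 2 values were -0.56 and 0.88, and without the scaling they were -0.78 and 0.77. Calm2 and Calm3 had an r of 0.37. These are descriptions, since values from 1 library share its dissection and its scaling.

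Genes outside the set whose pattern was most like a member's were found in the same way among 14135 tested genes. For Camk2a they were Ppp1r9b, the spine scaffold spinophilin (r = 0.93, rho 0.82), and the casein kinase gene Csnk1g2 (r = 0.93, rho 0.85). For Camk2b they were Rasl11b (r = 0.90) and Wnt9a (0.88), for Camk2d Sccpdh (0.90) and Gas7 (0.86), and for Camk2g the sodium channel subunit Scn4b (0.93) and Plxdc1 (0.90). Camk4 was most like Zdhhc17 (0.86) and Gpr158 (0.85), Camkk1 like Pgp (0.85) and Tubgcp6 (0.84), and Camkk2 like the small GTPase gene Rab6b (0.89) and Rnf44 (0.80). Calm2 was most like Hagh (0.88) and the citric acid cycle gene Idh3a (0.87), and Calm3 like the mitochondrial transcript mt-Co3 (0.86) and Cnn3 (0.83). Each is the top of many values over 17 libraries. Without the 2 libraries in which the member lay farthest from its median, r lay between 0.63 (Camkk2 and Rnf44) and 0.90.

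The wider calmodulin pathway was read from 8 lists that hold 75 genes, each of which was tested. None passed (0 of 75). As deposited 54 (72.0%) were lower, beside 71.0% of all tested genes, and 21 were higher. The median log2 difference was -0.040, beside the -0.035 of all tested genes. After median-of-ratios scaling 40 were lower and 35 higher, where 50.9% of all tested genes were lower. The counts lower in each list below stand beside these same shares of all tested genes. Under an unadjusted p of 0.05 as deposited, 10 of 75 (13.3%) were lower and 0 were higher, beside 7.85% and 0.898% of all tested genes. This count was not repeated after the scaling.

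Among the other kinases of the superfamily 10 of 13 had lower values as deposited and 8 of 13 after median-of-ratios scaling. Camkv, a kinase-like calmodulin-binding protein without kinase activity, stood at 167 ± 7.76 and 181 ± 8.37 TPM, with every Poly(I:C) library at or under the saline median (limma adjusted p = 0.486) and the lowest, 155 TPM, in Poly(I:C) replicate 7. Camk1, a cytosolic target of the kinase kinases, stood at 83.7 ± 5.20 and 91.3 ± 4.78 TPM, a log2 difference of -0.12 ± 0.041 (SE; limma adjusted p = 0.486). Its lowest value, 73.4 TPM, was that of Poly(I:C) replicate 7 and its highest, 99.2 TPM, that of saline replicate 7. Without both libraries the log2 difference was -0.084 for Camk1, and for Camkv it was -0.093 against -0.11 with them. After median-of-ratios scaling of all libraries it was -0.087 for Camk1 and -0.073 for Camkv. The most abundant member of that list was the doublecortin-like kinase gene Dclk1, at 273 and 275 TPM. The CaMKII inhibitor gene Camk2n1 stood at 516 and 518 TPM, with both inhibitor genes lower by less than 0.02 as deposited and higher after median-of-ratios scaling. The CaM kinase phosphatase gene Ppm1e stood at 59.8 and 62.8 TPM, with the same 2 libraries at its extremes, and its log2 difference of -0.066 was -0.011 without them.

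Calmodulin-binding and membrane reservoir proteins, which hold calmodulin or bind membrane lipid in competition with it, had 4 of 6 genes lower under both scalings, with a median of -0.096 as deposited. Marcksl1 stood at 35.9 ± 3.39 and 41.0 ± 3.49 TPM, and Basp1 at 435 ± 19.2 and 464 ± 16.6 TPM. For both, 1 Poly(I:C) library exceeded the saline median, and neither passed (limma adjusted p = 0.486). Saline replicate 7 held the maximum of both (46.8 and 495 TPM), and Poly(I:C) replicate 7 the Marcksl1 minimum (28.3 TPM). Without these libraries the log2 difference of Marcksl1 was -0.12 against -0.19 with them, and that of Basp1 -0.071 against -0.094. After median-of-ratios scaling of all libraries, Marcksl1 was at -0.15, Basp1 at -0.057 and the list median at -0.059. Neurogranin (Nrgn), the most abundant gene of the pathway lists, stood at 4627 and 4559 TPM, and Pcp4 at 454 and 428 TPM, highest in Poly(I:C) replicate 7.

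Calcineurin, the calmodulin-dependent phosphatase that opposes CaMKII at synapses, had 4 of 7 genes lower as deposited (2 of 7 after scaling) and a median of -0.0037. Its catalytic gene Ppp3ca stood at 598 and 602 TPM, and the calcineurin regulator Rcan2, the pathway gene with the smallest p among those higher, at 202 ± 25.5 and 183 ± 14.5 TPM (limma adjusted p = 0.576). The highest Rcan2 value, 252 TPM, was that of Poly(I:C) replicate 7, and the log2 difference of 0.13 was 0.093 without replicate 7 of either group. After median-of-ratios scaling of all libraries the Rcan2 difference was 0.17. Other calmodulin effectors, led by the calcium pump gene Atp2b2 (200 and 192 TPM), had 12 of 18 genes lower (10 after scaling). CaMKII partners and substrates had 8 of 12 lower (7 after scaling), with the scaffold Dlg4 at 546 and 540 TPM, the AMPA receptor auxiliary subunit Cacng2 at 41.0 and 38.7 TPM and Shank3 at 83.1 and 80.0 TPM. Targets of CaMK4 and the kinase kinases had 12 of 15 lower (8 after scaling), with the transcription factor Mef2c at 317 ± 34.6 and 359 ± 42.1 TPM, a log2 difference of -0.18 ± 0.068 (SE; limma adjusted p = 0.510). The Mef2c maximum, 443 TPM, was that of saline replicate 7, and without replicate 7 of either group the difference was -0.13.

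**Figure D4:**
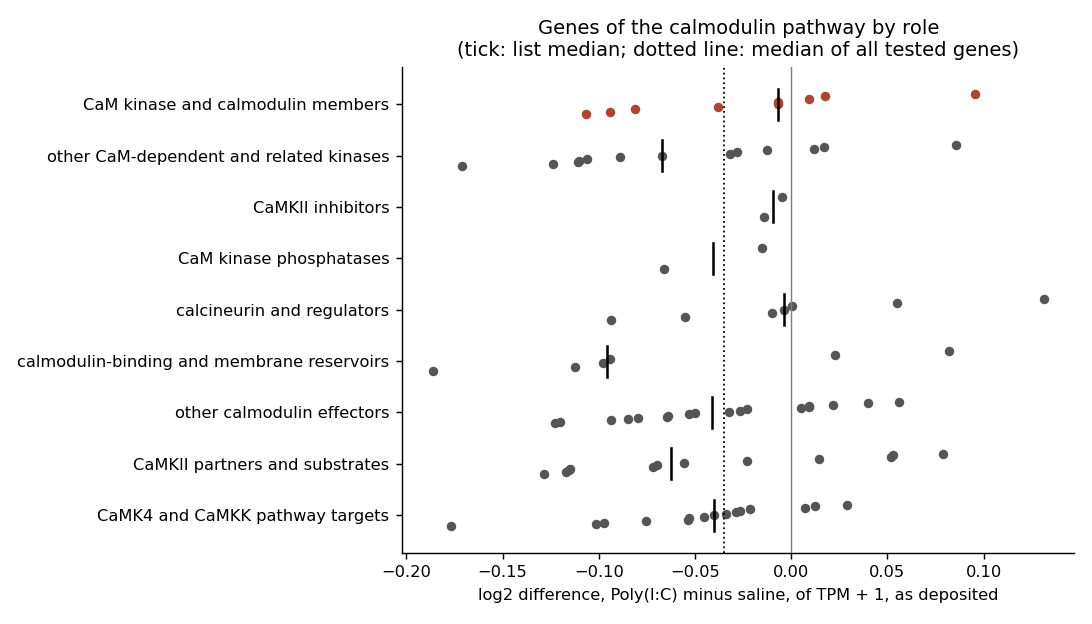
Log2 difference, Poly(I:C) minus saline, of each tested pathway gene as deposited (horizontal axis), by role, with list medians as ticks and the median of all tested genes (-0.035) dotted. Differences lie between -0.19 (Marcksl1) and 0.13 (Rcan2), on both sides of the dotted line in most lists.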

How the data were processed

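Expression was deposited as TPM, 1 column for each of 17 libraries, with column sums of 999999 to 1000001. Per the submitters' processing notes, RSEM 1.2.31 and STAR 2.5.1b were used with the build mm10 after Trim Galore 0.4.0. Neither the annotation release nor the strand setting is given in the sources used here. TPM keeps no depth, so counting intervals were not computed. Columns were matched to samples by name. Symbols were matched without the version suffix for 48058 of 48440 identifiers. GENCODE M21 (GRCm38) gave positions and sequences.

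Genes with at least 1 TPM in at least 8 libraries were fitted with limma 3.58.1 in R 4.3.3 on log2(TPM + 1), with trended eBayes moderation. Tests were two-sided and adjusted by Benjamini-Hochberg over 14144 genes. The procedure was run on simulated data with independent genes and libraries, which cannot test the effect of littermates or of shifts shared within a library. Fold changes on this scale are slightly understated for low genes. Other computation used Python 3.11.15 with scipy 1.17.1, pandas 2.3.3 and numpy 2.4.6, and figures matplotlib 3.10.9. Pathway genes are named by p (in each direction the lowest 4 over all lists) or as the most abundant of a list; patterns most like a member's are the 2 highest r. Members, lists and alternatives were chosen with earlier results of these data known. The labels mention 11 dams without tying offspring to litters, so p-values treat littermates as independent.

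Alternatives were other pseudocounts (0.1, 0.5), filters (none, 5 TPM), scalings, eBayes and weight settings, a rank test, a looser threshold (0.1), a replicate block, and leaving out libraries. Median-of-ratios scaling without replicate 7 of either group was added after seeing the data. 1 planned pathway list, and values that need it, are not reported here.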

Additional observations from a re-analysis of the deposited data

How the results depend on the processing

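No member passed under any of the alternatives run (15 settings and 17 single-library omissions); adjusted p of Calm3 ran from 0.309 to 0.902 over the former, and was 0.269 at the lowest over the latter. Differences of Calm2, Calm3, Camk2d and Camkk2 kept their sign throughout. The other filters, robust eBayes, the rank test and the looser threshold leave a log2 difference as it was, so no sign could turn there. With median-of-ratios scaling and without replicate 7 of either group, Camk2d was -0.014 (from -0.094) and Calm2 -0.018 (from -0.081). Under the same setting Calm3 was -0.066 and Camkk2 0.14. Camk4 and Camkk1 turned to 0.029 and 0.030 with median-of-ratios, 0.028 and 0.029 with upper-quartile, 0.025 and 0.025 with quantile scaling, and 0.017 and 0.018 when scaled to the total outside the 50 most abundant genes. Camk2a turned to -0.010 with quantile scaling. Without replicate 7 of either group Camk2a was -0.0020, Camk2g -0.0039 and Camk4 0.0081; with median-of-ratios scaling added, Camk2b was 0.0069, Camk4 0.035 and Camkk1 0.013. The cause of these turns was not tested. Leaving out 1 library at a time gave -0.013 to 0.023 for Camk2a, -0.011 to 0.038 for Camk2g, -0.028 to 0.014 for Camk4 and -0.031 to 0.017 for Camkk1. Signs turned without Poly(I:C) replicate 6 or saline replicate 7 for Camk2a, Poly(I:C) replicate 7 for Camk2g, Poly(I:C) replicates 1 or 5 or saline replicates 3, 5 or 7 for Camk4, and Poly(I:C) replicate 6 or saline replicates 2, 3 or 4 for Camkk1. Over all genes, 2 were called with median-of-ratios scaling, 2 with the replicate block and 1 with that scaling without replicate 7 of either group; leaving out 1 library called 0 to 1, the 1 without saline replicate 4. The share of Camk2a in summed Camk2 differed by 0.451 percentage points, or -0.024 to 0.792 with 1 library left out. No pairing of samples by equal replicate number was seen: r of their deviations ran from -0.22 to 0.082, and 1 of 8 numbers had its best match in itself. A weak effect shared by equal numbers could be missed by so few values. With the replicate block, in which Poly(I:C) replicate 9 has no partner, Calm3 was -0.12 with an adjusted p of 0.309 in limma. Depth per library is unknown, which leaves the precision to the spread between animals.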
